A study of Drosophila melanogaster with 4 samples.

Results

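RPD3 occupancy was examined over the NK cluster and the Iroquois complex, a pair of homeobox gene clusters of Drosophila melanogaster. The data were lists of enriched regions from chromatin immunoprecipitation and sequencing (ChIP-seq) with an antibody against RPD3, named RPD3-Q3451, in wild-type Oregon-R embryos of 14 to 16 h. There were 2 RPD3 ChIP libraries and 2 input libraries of the same strain, genotype and age, with no other treatment, allele or stage. Each ChIP replicate had a list of its own, and a combined list was given for the series. Members were chosen by position only: every enriched region that overlapped 3R from 17190000 to 17420000 (the NK cluster, 230 kb) or 3L from 12570000 to 12710000 (the Iroquois complex, 140 kb) on FlyBase release 5. They numbered 119 of the 34059 regions in the 3 lists, with 20 of 7041 in replicate 1, 26 of 7654 in replicate 2 and 73 of 19364 in the combined list. No depleted region lay in either window (0 rows). Each region had a width and a deposited score, read as the log2 ratio of ChIP to input. Read numbers were not part of the lists, and depth was unknown. Nothing in the labels states that the replicates came from separate embryo collections, and the spread between them may be technical only.

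RPD3 is a class I histone deacetylase. It removes acetyl groups from histone tails and acts within co-repressor complexes that DNA-binding factors recruit, and it is also found at active genes. The homeobox genes of both clusters encode transcription factors that set cell identity, and each is expressed in restricted groups of embryonic cells. Whole embryos were used, so a region could come from many cells or from a small group of them, and these cannot be told apart in the lists.

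In the NK cluster, tin (tinman) is needed for the heart and for the visceral and dorsal muscles. Its neighbour bap (bagpipe) acts after tin in the visceral mesoderm. The ladybird genes lbe and lbl act in the identity of heart cells and of single body-wall muscles, and slou (slouch, also S59) in the identity of a further subset of body-wall muscles. In the Iroquois complex, ara (araucan) and caup (caupolican) are known for prepatterning the sensory organs and veins of the wing, and mirr (mirror) for dorsal identity in the eye. Their proteins have homeodomains of the TALE class.

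All 8 genes were found by symbol in the RefSeq table of release 6, which was used for gene order only. In that order tin came first in the NK cluster, with mod(mdg4) as the gene before it, followed by bap, lbl, lbe and slou. From tin to slou the table held 18 genes, of which 13 were not among the 5 named. Of these 13, 7 coded for protein (Ugt49B2, CG7907, CheB93a, CheB93b, Fancm, C15 and sp3) and 6 were long non-coding RNAs. C15 is itself a homeobox gene, with a role in the tip of the leg. In the Iroquois complex the order was ara, caup and mirr, with 4 long non-coding RNAs and no protein-coding gene between caup and mirr. No release 5 annotation was used here, so regions are placed by their position in the window and are not assigned to single genes.

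RPD3 regions were found in both clusters in each replicate, in numbers that were ordinary for their arms. In the NK window 12 regions were listed for replicate 1 and 19 for replicate 2 (mean 15.5 ± 4.95, SD, n = 2). The Iroquois window had counts of 8 and 7, a mean of 7.50 ± 0.707 (SD, n = 2). The NK counts of the replicates stood farther apart than the Iroquois counts, and the order of the replicates was not the same in both windows. Replicate 2 had 1.58 times as many regions as replicate 1 in the NK window, against 1.12 times over all of 3R. For the Iroquois window that ratio was 0.875, against 1.07 over all of 3L. Per 100 kb, the NK window held 5.22 regions in replicate 1 and 8.26 in replicate 2, where 3R as a whole held 6.03 and 6.78. The Iroquois window held 5.71 and 5.00 per 100 kb, where 3L held 5.23 and 5.62.

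**Figure D1:**
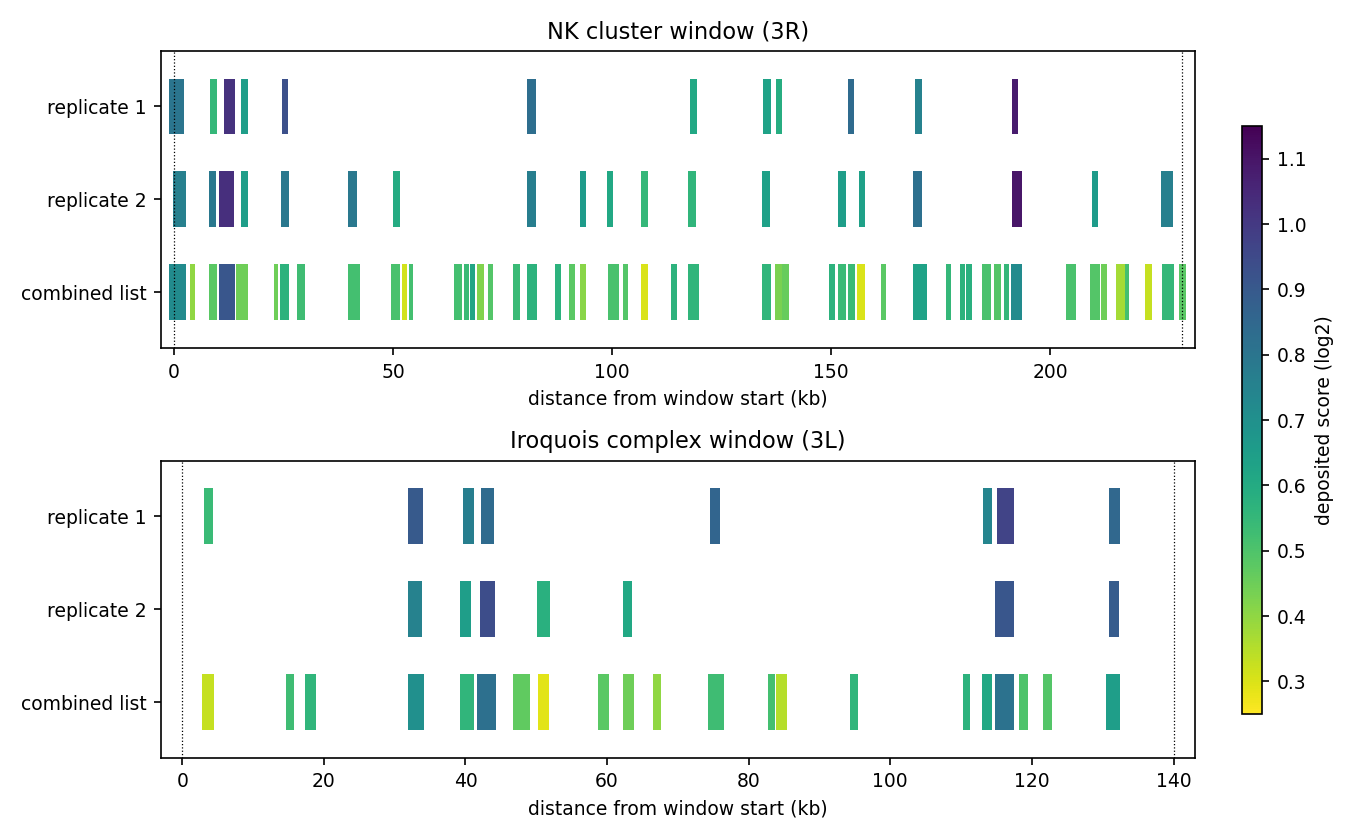
Enriched regions of the 3 lists along the NK window (top) and the Iroquois window (bottom). The x axis is the distance from the window start in kb, each block is 1 region drawn to its width, colour gives the deposited score on a log2 scale, and dotted lines mark the window bounds. The first 30 kb of the NK window hold 5 of the 12 regions of replicate 1 and 5 of the 19 of replicate 2, and the darkest blocks, at 12.0 and 192 kb, recur in both replicates.

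The background for these counts was 1000 windows of equal length placed at random on the same arm. They are given as a description and carry no test. On 3R the windows had a median of 14.0 regions in replicate 1, with the 5th and 95th percentiles at 4.00 and 25.0, and 63.4% of windows had at least the 12 regions of the NK cluster. In replicate 2 the median was 15.0 (5th and 95th percentiles 6.00 and 27.0), and 33.0% of windows reached the cluster's 19. On 3L the windows had medians of 7.00 regions in replicate 1 (5th and 95th percentiles 1.00 and 16.0) and 8.00 in replicate 2 (1.00 and 17.0). Such wide ranges would mark only extreme Iroquois counts as unusual. At least the Iroquois counts of 8 and 7 were found in 49.5% and 58.3% of them. The cluster counts therefore lay inside the middle 90% of windows in both replicates. The combined list came nearest to an edge of that range for the NK cluster, with 52 regions against a median of 40.0 and a 95th percentile of 53.0, and 8.70% of windows had as many. For the Iroquois complex the combined list had 21 regions, the same as the median window (21.0).

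**Figure D2:**
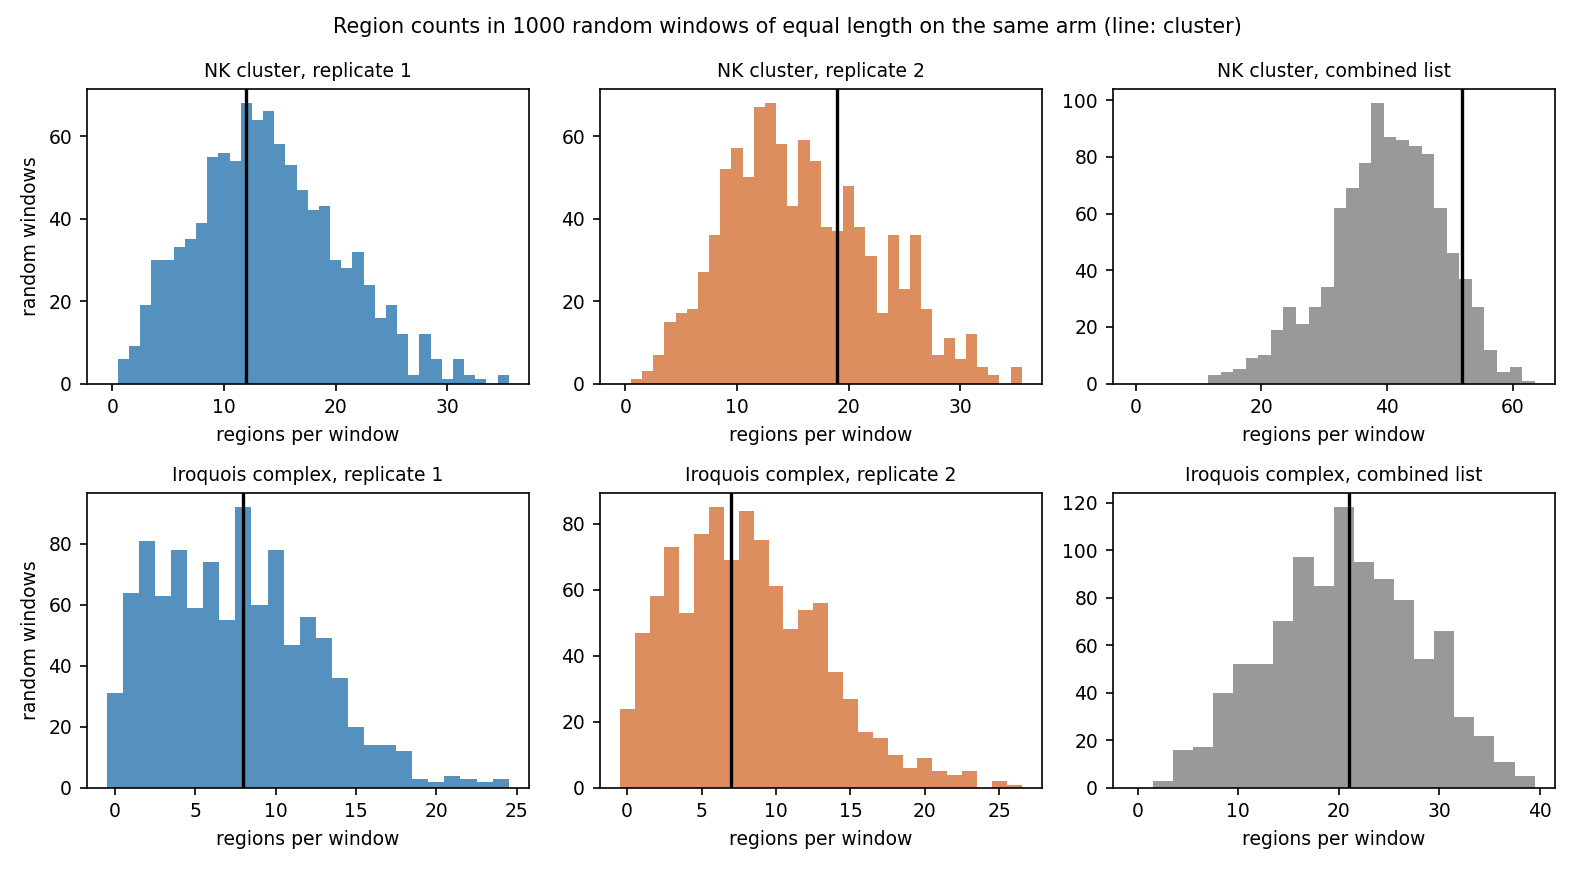
Number of regions in 1000 random windows per cluster, by list. The x axis is regions per window, the y axis is the number of windows, and the black line marks the cluster. The line stands at 12, 19 and 52 regions for the NK cluster and at 8, 7 and 21 for the Iroquois complex, and the NK combined list is the panel with the line farthest to one side.

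The share of DNA inside regions was also ordinary or somewhat low. Regions covered 8.83% of the NK window in replicate 1 and 15.7% in replicate 2, a mean of 12.3% ± 4.89 (SD, n = 2). The same arm was covered to 13.8% and 16.1%. The Iroquois window was covered to 9.73% and 9.04%, a mean of 9.38% ± 0.486 (SD, n = 2), where 3L was covered to 11.7% and 13.3%. The Iroquois share was below that of its arm in each replicate, yet 58.0% of random windows on 3L had at least its mean. For the NK cluster 58.9% of windows on 3R had at least its mean. Covered length came to 20.3 kb and 36.2 kb in the NK window, and to 13.6 kb and 12.7 kb in the Iroquois window. In the combined list the shares were 38.1% for the NK window and 25.2% for the Iroquois window, against 36.5% of 3R and 30.6% of 3L.

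Neither cluster held a broad RPD3 region in the replicate lists. The regions of the NK window were from 1336 to 3355 bp wide in replicate 1 and from 1308 to 3449 bp in replicate 2. Regions of the Iroquois window ran from 1334 to 2406 bp and from 1335 to 2610 bp. On the arms the widest regions of the replicates reached 11435 and 12471 bp on 3R and 14038 and 10991 bp on 3L. Median widths were 1530 and 1845 bp in the NK window (mean 1687.5 ± 222.7 bp, SD, n = 2) and 1562.5 and 1778 bp in the Iroquois window (1670.2 ± 152.4 bp, SD, n = 2). All 4 replicate medians were below those of the arms, which were 1893 and 1920 bp on 3R and 1833.5 and 1929 bp on 3L. For the NK cluster in replicate 1, 91.0% of random windows had a median width at least as large, and in replicate 2 that share was 58.1%. For the Iroquois complex the shares were 78.0% and 63.7%. In the combined list the median width was 1542.5 bp in the NK window (1599 bp on 3R) and 1595 bp in the Iroquois window, above the 1575 bp of 3L. The widest combined-list region was 3805 bp in the NK window and 2726 bp in the Iroquois window.

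Median scores of the clusters lay inside the middle 90% of random windows in every list, with the NK window in replicate 2 near the lower edge. In the NK window the median score was 0.78 in replicate 1, equal to the 0.78 of 3R, and 0.66 in replicate 2, below the 0.77 of 3R. Single scores there ran from 0.55 to 1.08 and from 0.55 to 1.10. The Iroquois window had median scores of 0.85 and 0.75, where 3L had 0.77 and 0.76, and single scores ran from 0.54 to 0.97 and from 0.58 to 0.94. The means over replicates, 0.72 ± 0.08 for the NK window and 0.80 ± 0.07 for the Iroquois window (SD, n = 2), differed by about the spread between replicates. In the NK window 1 of 12 regions in replicate 1 and 1 of 19 in replicate 2 scored above the 90th percentile of 3R (1.04 and 1.05). In the Iroquois window 0 of 8 and 0 of 7 did so on 3L (1.04 and 1.07). The combined list had 2 of 52 and 2 of 21 above its 90th percentiles (0.72 and 0.74). By definition few regions lie above a 90th percentile, so counts this small do not show a lack of high scores. In replicate 2, 93.1% of random windows on 3R had a median score at least as high as the NK cluster, and in replicate 1 the share was 56.0%. The 5th percentile of these windows was 0.65 in replicate 2. Above the median score of 3R were 7 of the 19 NK regions in replicate 2 and 6 of the 12 in replicate 1.

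Replicate support was counted for each combined-list region as overlap by at least 1 bp with regions of the replicates. In the NK window 10 of 52 combined-list regions (19.2%, exact 95% binomial interval 9.63 to 32.5) had a region of both replicates over them, against 23.3% over 3R. The Iroquois window had 5 of 21 (23.8%, 8.22 to 47.2), against 23.5% over 3L. These intervals cover counting error only and take regions to be independent of one another, although they share a library. Regions found in neither replicate were 31 of 52 in the NK window (59.6%, where 3R had 55.6%) and 11 of 21 in the Iroquois window (52.4%, where 3L had 55.8%). Of the NK regions of the combined list, 2 were supported by replicate 1 only (3.85%, where 3R had 8.01%). Replicate 2 alone supported 9 (17.3%, where 3R had 13.1%). For the Iroquois window these numbers were 3 (14.3%, where 3L had 8.55%) and 2 (9.52%, where 3L had 12.1%). With the regions supported by both included, any overlap with replicate 1 held for 23.1% of NK and 38.1% of Iroquois regions. Any overlap with replicate 2 held for 36.5% and 33.3%. The arm shares of any overlap are not given here, so these values have no background. No source used here says how the combined list was made, so its overlap with the replicates is no independent check.

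Between the replicates themselves, 10 of the 12 NK regions of replicate 1 (83.3%) overlapped a region of replicate 2, against 74.6% over 3R, and 10 of the 19 of replicate 2 (52.6%) overlapped one of replicate 1, against 64.5%. In the Iroquois window the counts were 5 of 8 (62.5%, against 73.7% over 3L) and 5 of 7 (71.4%, against 66.4%). Exact 95% binomial intervals of these shares were wide, from 51.6 to 97.9 and 28.9 to 75.6 in the NK window, and from 24.5 to 91.5 and 29.0 to 96.3 in the Iroquois window. They rest on few regions and take regions of 1 library to be independent, so no difference from the arm is drawn from them. The 10 NK regions of each replicate overlapped one another in pairs, as did the 5 Iroquois regions. The shares of the replicates in a window are therefore not separate evidence. Counted in bases, 16.7 kb of the NK window lay in regions of both replicates, which was 82.4% of the length covered in replicate 1 and 46.2% of that in replicate 2. Over 3R these shares were 74.0% and 63.4%. Of the Iroquois window, 8.63 kb were common to both, or 63.4% and 68.2%, where 3L had 73.3% and 64.3%.

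The 15 combined-list regions supported by both replicates each held exactly 1 region of each replicate. The highest mean score of the NK window was at 3R from 17381105 to 17383484, 192 kb into the window. It scored 1.08 in replicate 1 and 1.10 in replicate 2, a mean of 1.09 ± 0.02 (SD, n = 2), which is a ratio of 2.13 on a linear scale. It stood above 92.0% and 92.4% of the regions of 3R in the replicate lists. Next came 3R from 17200265 to 17203833, 12.0 kb into the window, with scores of 1.02 and 1.03 (linear ratio 2.04). It was also the second widest supported region of the cluster, with 3569 bp. These were the strongest regions of the NK window in both replicates, and they lay toward opposite ends of it.

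The other named NK regions scored lower. A region from 17214120 to 17216307, 25.2 kb into the window, had scores of 0.93 and 0.79 in replicates 1 and 2 (mean 0.86 ± 0.10, SD, n = 2). The region from 17270549 to 17272756, at 81.7 kb, had 0.83 and 0.77, and that from 17358584 to 17361806, at 170 kb, had 0.75 and 0.82. Both were near the middle of the 3R scores, standing above 42.0% to 61.8% of the arm's regions. The widest supported region, of 3805 bp from 17188793 to 17192597, reached over the start of the window and had scores of 0.80 and 0.76. The 4 remaining supported regions, at 8.86, 16.1, 119 and 135 kb, had mean scores from 0.58 to 0.67. The one at 8.86 kb differed most between the replicates, with 0.55 in replicate 1 and 0.79 in replicate 2.

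In the Iroquois complex 3 supported regions lay close together and 2 near the other end. The highest mean score was at 3L from 12684811 to 12687536, 116 kb into the window, with 0.97 in replicate 1 and 0.91 in replicate 2 (mean 0.94 ± 0.04, SD, n = 2, linear ratio 1.92). Second was 3L from 12611602 to 12614320, at 43.0 kb, with 0.84 and 0.94. These were also the widest, with 2726 and 2719 bp. The region from 12700518 to 12702504, at 132 kb, had 0.85 and 0.89. The region from 12601824 to 12604101, at 33.0 kb, had 0.90 and 0.75, and the region from 12609266 to 12611171, at 40.2 kb, had 0.77 and 0.65. Mean scores thus spanned 0.71 to 0.94 over the 5 regions here, and 0.58 to 1.09 over the 10 of the NK cluster. A range over fewer regions tends to be narrower.

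**Figure D3:**
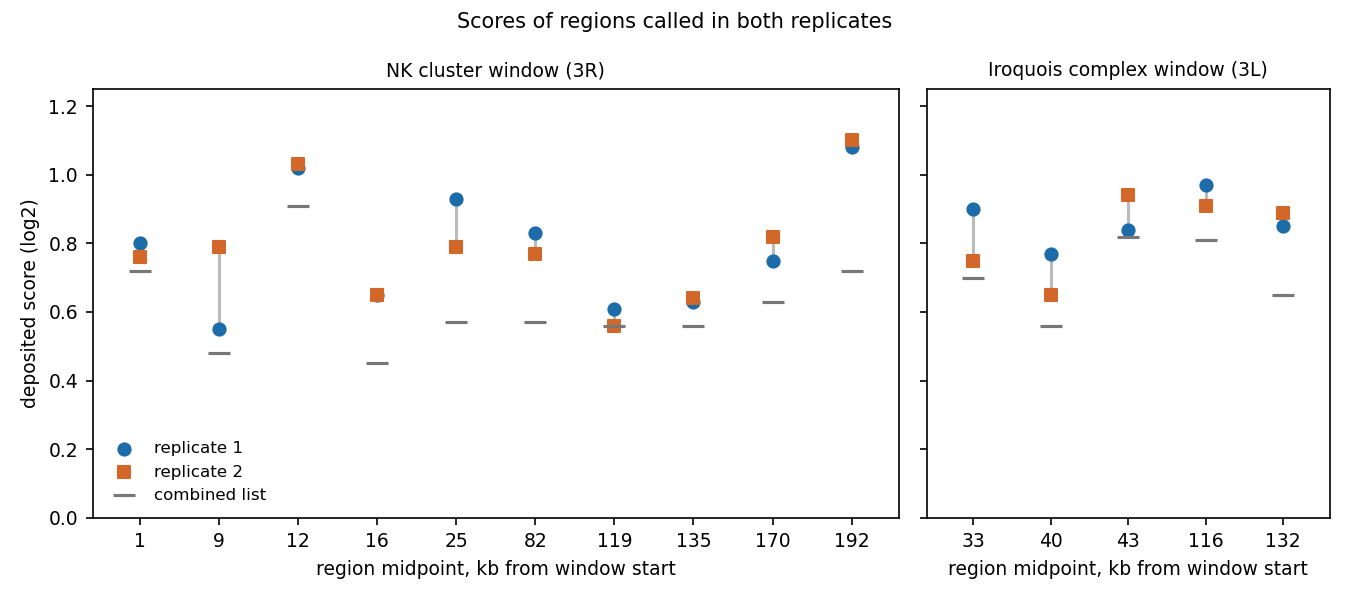
Deposited scores (y axis, log2) of the 10 NK and 5 Iroquois regions called in both replicates, ordered by distance of the region midpoint from the window start in kb (x axis). Circles are replicate 1, squares replicate 2, and bars the combined list. Replicate scores differ by at most 0.24 in the NK window and 0.15 in the Iroquois window, and the bar lies below both replicates in 9 of 10 and 5 of 5 regions.

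Among regions called in both replicates, scores of the same region mostly differed little on the log2 scale. The median absolute difference was 0.05 over the 10 NK regions and 0.11 over the 5 Iroquois regions, where it was 0.09 over the 1103 supported regions of 3R and 0.09 over the 834 of 3L. Replicate 2 was higher in 5 of the 10 NK regions and in 2 of the 5 Iroquois regions. Ranks on the arm were less stable than the scores. In the NK window the largest shift, at 8.86 kb, was from above 5.88% of 3R regions in replicate 1 to above 55.3% in replicate 2. The smallest was at 12.0 kb (89.0% and 89.3%). In the Iroquois window the largest was at 33.0 kb (75.0% and 46.7% of 3L) and the smallest at 116 kb (83.3% and 77.2%). The overlap of the partners spanned at least 83.7% of the narrower region in the NK window and at least 75.9% in the Iroquois window. The median of the mean scores was 0.78 in the NK window (0.82 over 3R) and 0.87 in the Iroquois window (0.81 over 3L). Combined-list scores were below both replicate scores in 9 of 10 and 5 of 5 regions, as in 84.8% of such regions of 3R and 83.8% of 3L. Supported regions also had lower median widths than on the arms. Their median width in the combined list was 2294 bp in the NK window and 2278 bp in the Iroquois window, where the arms had 3387 and 3416.5 bp. These medians rest on 10 and 5 regions and were not compared with random windows.

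Regions of 1 replicate alone had scores near those of such regions on the whole arm, which had medians of 0.74 in replicate 1 and 0.70 in replicate 2 on 3R, and 0.73 and 0.69 on 3L. In the NK window replicate 2 had 9 of them, with scores from 0.55 to 0.79 and a median of 0.65, and replicate 1 had 2, with 0.59 and 0.84. The second of these, from 17343839 to 17345295, lay between a pair of regions of replicate 2, from 17341450 to 17343337 and from 17346382 to 17347717, and overlapped neither. In the Iroquois window replicate 1 had 3 such regions, with scores from 0.54 to 0.86, and replicate 2 had 2, with 0.58 and 0.61. The highest of them, with 0.86, lay at 3L from 12644523 to 12645911, 75.2 kb into the window. The combined list held a region of 2265 bp there with a score of 0.53.

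Along the NK window the covered share was highest at its start. In bins of 10 kb, the first 10 kb were covered to 38.2% in replicate 1 and 42.0% in replicate 2, and the next to 39.9% and 50.1%. These bins were the highest of the window in both replicates. Of the 23 bins, 10 had coverage in both replicates, 8 in replicate 2 only, 0 in replicate 1 only and 5 in neither. No share over all bins of 3R is given here, so these counts have no background. Coverage of 3R as a whole was also higher in replicate 2 (16.1%) than in replicate 1 (13.8%). Further maxima lay from 130 to 140 kb, with 32.9% and 17.2%, and from 150 to 160 kb, with 14.6% and 32.2%. Only the bin from 120 to 130 kb was empty in all 3 lists. The last 30 kb had regions in replicate 2 (5.48%, 9.39% and 26.4% by bin) and none in replicate 1.

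In the Iroquois window coverage was found at separate places. Of its 14 bins, 4 were covered in both replicates, 2 in replicate 1 only, 2 in replicate 2 only and 6 in neither. Those covered in both were from 30 to 40 kb (25.4% and 27.2%), from 40 to 50 kb (29.7% and 28.1%), from 110 to 120 kb (37.4% and 26.1%) and from 130 to 140 kb (16.0% and 14.0%). The replicates differed by less than 3 percentage points in all of these except the bin from 110 to 120 kb. The bins from 20 to 30 kb and from 100 to 110 kb were empty in all 3 lists. No share over all bins of 3L is given here, so the bin counts of this window have no background either.

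**Figure D4:**
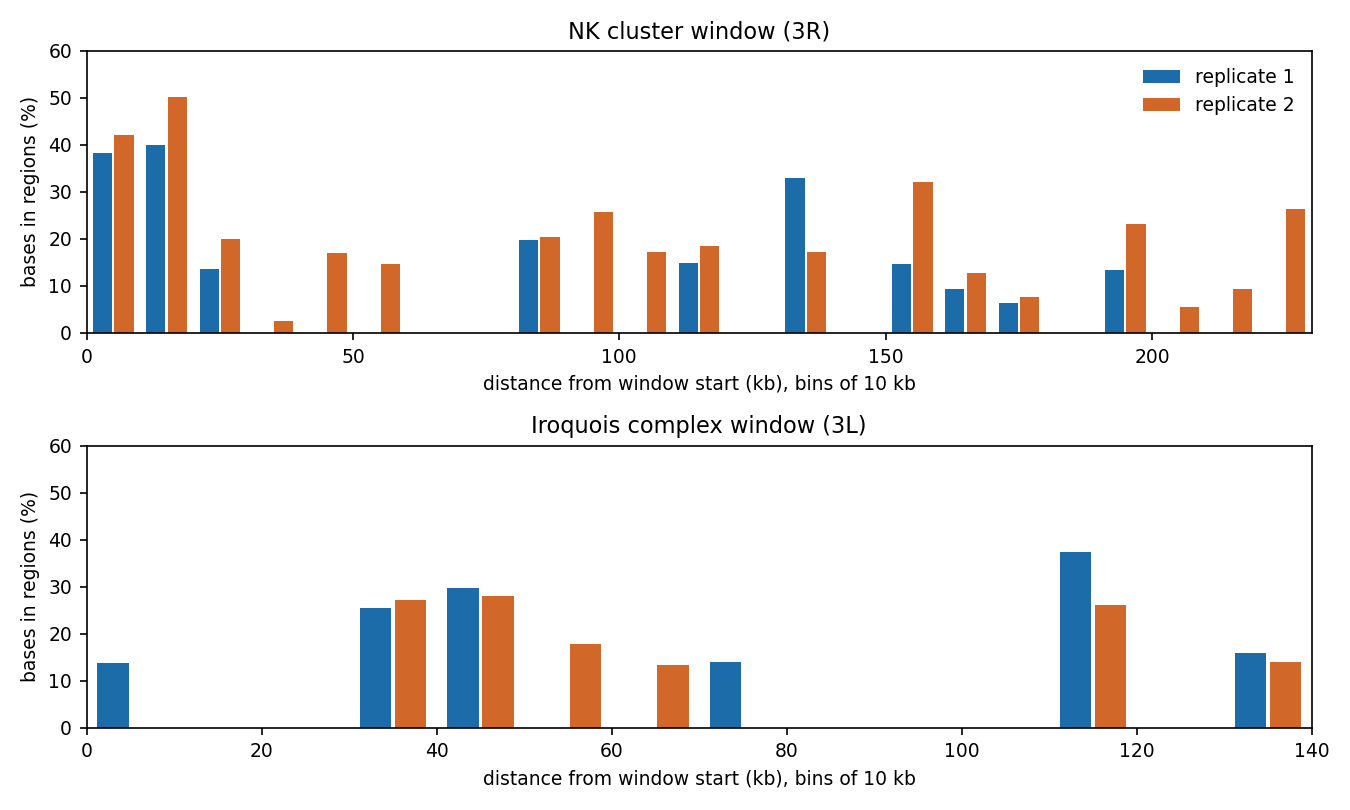
Percent of bases inside regions (y axis) in bins of 10 kb along the NK window (top) and the Iroquois window (bottom), with the distance from the window start in kb on the x axis. Blue bars are replicate 1 and orange bars replicate 2. The NK window peaks in its first 20 kb, at 38.2% to 50.1%, and the Iroquois window shows 4 bins covered in both replicates.

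The longest stretch with no replicate region was of ordinary length in both clusters. That of the NK window was 54.7 kb in replicate 1, from 17215911 to 17270595, and 29.2 kb in replicate 2, from 17241469 to 17270664. It ended at the supported region at 81.7 kb in both. For the Iroquois window the longest was 37.2 kb in replicate 1, from 12645912 to 12683065, and 51.3 kb in replicate 2, from 12633533 to 12684808. Of the random windows, 53.3% and 91.2% on 3R had a longest stretch of at least the NK lengths, with medians of 56.2 and 51.9 kb, and 73.1% and 44.1% on 3L had one of at least the Iroquois lengths, with medians of 51.7 and 46.5 kb. The combined list had regions within them, and its own longest empty stretch was 14.5 kb in the NK window, from 17309815 to 17324292, and 14.8 kb in the Iroquois window, from 12665425 to 12680217. The median empty stretch of the replicates was longer than on the arm. It was 14.4 and 9.90 kb in the NK window (5.39 and 4.98 kb on 3R) and 13.3 and 11.9 kb in the Iroquois window (5.95 and 5.87 kb on 3L). In the combined list it was 1.66 kb (1.91 kb on 3R) and 3.91 kb (2.24 kb on 3L). Medians were not compared with random windows.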

How the data were processed

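ChIP-seq of RPD3 gave 1 region list per ChIP replicate and 1 list for the series. The inputs came with no region list of their own. Reads were aligned with Bowtie 0.12.7, per the submitters' processing notes, and coordinates are of FlyBase release 5, per the file headers. The region caller, its threshold and the making of the combined list are not stated in the labels or headers used here, and counts and covered length can change with depth and threshold. The deposited score was taken as a log2 ratio: relative to its commonest value, 2 to the power of the score was a ratio of whole numbers (denominator up to 2000, relative tolerance 3e-13) in at least 99.2% of the regions of each list. ChIP over input was inferred from the labels.

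Window bounds came from the rule for the clusters. The members and lists were chosen with earlier results of these data known. A region belonged to a window if it overlapped it by at least 1 bp. Region counts, union of covered bases, widths, scores and support were computed per list, beside 1000 random windows of equal length on the same arm, of which 19 (3R) and 15 (3L) touched the cluster itself. With 1 condition and 2 replicates, no test between groups was possible and no p-values were computed. Named were, per cluster, the 6 supported regions with the highest mean replicate score, the 3 widest and the longest uncovered stretch of each list. Other regions were named after their values were seen. Intervals are exact Clopper-Pearson at 95%. Window functions were tested on simulated lists. Columns of other samples numbered 0. Python 3.11.15, numpy 2.4.6, pandas 2.3.3, scipy 1.17.1 and matplotlib 3.10.9 were used. Alternatives covered membership by midpoint, the overlap counted as support, better-scoring regions, merging, window bounds, window placement and omission of each replicate.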

Additional observations from a re-analysis of the deposited data

How the results depend on the processing

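Of 146 alternative values, 102 stayed within the set range (1.5 times for counts, 1 SD between replicates, or an exact 95% binomial interval) and 44 moved out of it. For covered share, width and score, the value of 1 replicate always lies within 1 SD of the mean of both. Leaving out a replicate could therefore not move these values out of range, and their staying says nothing about robustness. Midpoint membership, merging within 200 bp, stricter overlap, tiled windows (121 on 3R, 175 on 3L) and windows off the outer 2 Mb moved none. A second random seed gave 40.8% of windows at or above the NK cluster in mean count and 55.7% in mean covered share. Keeping the better-scoring regions of each list (at or above its median) removed regions by construction. The NK window then had a mean of 4.00 regions, 3.58% covered and a median score of 0.98, and in the combined list 21.0 regions, 17.1% covered and 9.52% supported by both. The Iroquois window then had a mean of 4.00 regions, 5.53% covered, a median score of 0.89 and a median width of 1945 bp, and in the combined list 9.00 regions, 12.0% covered, a median score of 0.61 and a median width of 1906 bp. The share of random windows at or above the cluster in mean region count, mean covered share and support by both became 76.4%, 79.7% and 82.9% for the NK cluster and 41.2%, 49.5% and 29.6% for the Iroquois complex, from 45.1%, 58.9% and 62.3% and from 51.0%, 58.0% and 47.1%. With windows widened by 20 kb on each side these became 37.0%, 47.9% and 52.4% (NK), and 61.0% and 66.1% for the first 2 measures (Iroquois). With windows narrowed by 20 kb they became 57.6%, 71.1% and 72.8% (NK), and 44.0% and 47.7% (Iroquois). The Iroquois covered share was 8.16% widened and 10.9% narrowed over the replicates, and 22.6% and 27.6% in the combined list. On 1 replicate alone, the share of windows at or above the cluster ran from 33.0% to 63.4% for the NK count, from 46.3% to 73.5% for the NK covered share, from 49.5% to 58.3% for the Iroquois count and from 53.8% to 61.8% for the Iroquois covered share. Support of NK combined-list regions was 23.1% without replicate 2 and 36.5% without replicate 1. No alternative put a cluster outside the middle 90% of windows in mean count, mean covered share or support by both. No paired analysis was possible because the inputs have no values here and the ChIP libraries form 1 group. Unknown depth limits every count.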

Other observations

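The DNA before the start of the NK window was more densely occupied than the arm as a whole in both replicates. The 230 kb there held 28 regions in replicate 1 and 27 in replicate 2, which covered 26.3% and 26.8% of it (mean 26.6% ± 0.358, SD, n = 2), against 13.8% and 16.1% of 3R and 8.83% and 15.7% of the cluster. Random windows of this length had 95th percentiles of 27.0% and 30.6% in covered share, so both shares lay below them. For region counts the 95th percentiles were 25.0 in replicate 1 and 27.0 in replicate 2. Of the 38 combined-list regions there, 22 (57.9%) were supported by both replicates, where 3R as a whole had 23.3%, random windows of this length a median of 22.5% and a 95th percentile of 40.7%, and the cluster 19.2%. The 230 kb after the window held 9 and 12 regions and were covered to 8.59% and 11.2%, with 22.2% of combined-list regions supported by both. In the order of release 6, mod(mdg4) is the gene before tin, and CG15498 the gene after slou. Gene order alone does not tell whether either gene lies inside or outside the window.

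Around the Iroquois window the covered share was 16.3% and 23.6% in the 140 kb before it and 12.3% and 14.9% in the 140 kb after it, above the 9.73% and 9.04% of the window in both replicates. Support by both replicates was 24.0% before, 23.8% within and 47.1% after. The neighbouring windows were looked at as a description, and the differences were not tested.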
